A study of Homo sapiens with 18 samples.

Results

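The 10 genes described here are immediate early genes, chosen by symbol: the AP-1 subunit genes FOS, FOSB, FOSL2, JUN and JUNB, the zinc finger factor gene EGR1, the orphan nuclear receptor gene NR4A1, and NPAS4, ARC and IER2. They are 10 of the 53853 genes in the count table, and all 10 passed the expression filter that left 18913 genes for testing. The data are 18 bulk polyA RNA libraries made from organoids of ventral forebrain type, which are small neural tissues grown in culture from H9, a human embryonic stem cell line.

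Each group held 3 libraries. The groups were cocaine + inhibitor, cocaine, dopamine + inhibitor, dopamine, control + inhibitor and control. Cocaine, a blocker of monoamine transporters, or dopamine, the transmitter itself, was given at 1 µM. The inhibitor of reactive oxygen species was acetylcysteine, a thiol antioxidant, added at 100 µM ahead of the dose. All 6 groups, controls included, also received 100 µM ascorbic acid, itself an antioxidant, as the vehicle. All organoids had received 100 ng/mL SHH and 1 µM purmorphamine from day 10, which steer neural tissue to ventral fates. They were dosed daily from day 83 for 1 week and frozen right after a final dose of 1 h. The RNA was therefore taken 1 h after the start of the last of many doses. The labels name H9 alone, and the design text's other cell line was not analysed here. Nothing in the labels says that a group's libraries are separate cultures. The p-values then measure only how far these samples spread, which may be technical.

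Immediate early genes are switched on by synaptic activity, growth factors and stress without the need for new protein, through kinases that act on factors already bound at their promoters, such as CREB at the CRE and SRF with its partners at the CArG box. Their transcripts appear within minutes and decay fast. FOS and JUN proteins pair to form AP-1, which binds DNA at target genes. In rodent striatum, repeated cocaine leads to the build-up of a stable FOSB splice form, DeltaFOSB. Counts per gene do not separate it from full-length FOSB.

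The stretch of promoter next to the annotated start is shown for the 6 genes that the values below turn on or that hold a CArG box. Each line gives the last 150 bases before the start, 5′ to 3′ on the plus strand, from RefSeq on GRCh38.p14. Capitals mark the CRE core (CGTCA, or TGACG on the other strand), the TATA box (TATAAA) and the CArG box.
FOSB, chr19:45467846-45467995: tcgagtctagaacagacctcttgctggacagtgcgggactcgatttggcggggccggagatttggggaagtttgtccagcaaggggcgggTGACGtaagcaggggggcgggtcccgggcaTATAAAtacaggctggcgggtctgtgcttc
FOS, chr14:75278678-75278827: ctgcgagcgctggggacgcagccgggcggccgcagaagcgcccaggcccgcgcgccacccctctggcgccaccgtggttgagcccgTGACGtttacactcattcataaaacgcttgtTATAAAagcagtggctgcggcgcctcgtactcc
FOSL2, chr2:28392708-28392857: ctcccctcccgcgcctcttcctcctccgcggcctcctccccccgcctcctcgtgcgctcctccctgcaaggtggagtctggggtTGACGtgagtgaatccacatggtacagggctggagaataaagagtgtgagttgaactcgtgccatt
JUNB, chr19:12791336-12791485: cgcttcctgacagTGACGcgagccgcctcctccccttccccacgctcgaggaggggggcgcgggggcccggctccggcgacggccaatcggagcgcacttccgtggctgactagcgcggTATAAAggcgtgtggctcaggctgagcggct
IER2, chr19:13150261-13150410: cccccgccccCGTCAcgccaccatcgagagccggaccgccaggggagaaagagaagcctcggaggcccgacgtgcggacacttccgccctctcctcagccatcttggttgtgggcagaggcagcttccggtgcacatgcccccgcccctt
EGR1, chr5:138465329-138465478: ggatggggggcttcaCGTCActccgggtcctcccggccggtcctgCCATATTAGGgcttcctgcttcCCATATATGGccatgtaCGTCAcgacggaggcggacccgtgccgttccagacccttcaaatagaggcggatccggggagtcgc
FOSB and FOS shared a layout, with the CRE core at 60 to 56 bases before the start in FOSB and at 64 to 60 in FOS, and the TATA box at 30 to 25 bases in FOSB and at 33 to 28 in FOS. FOSL2 and EGR1 each had a CRE core at 66 to 62 bases. JUNB had its CRE core farther off, at 137 to 133 bases, and a TATA box at 31 to 26 bases.

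In the whole window of 250 bases, searched on both strands, 8 of 9 genes had a CRE core, against 21.2% of 35116 promoter windows of the same length. NR4A1, with 2 annotated starts, was the gene without a match. ARC, on chromosome 8, was not searched. The windows of these genes were 53.2% to 70.8% G and C, and the background windows were not matched for base composition. The genes are counted over all their windows and the background by single window. The full CRE (TGACGTCA), which contains the core, was found in 0 of 9 genes and in 1.65% of windows, and the AP-1 site (TGACTCA) in 0 of 9 and 4.2%. EGR1 alone had CArG boxes, with 2 matches, against 1.16% of windows, and it alone had an EGR site (GCGNGGGCG), against 8.41%. TATAAA was found in FOS, FOSB and JUNB, against 10.7% of windows. Sequence farther upstream was not searched, so a site there would be missed. A match describes the letters of the reference genome and not binding, and factor binding was not measured.

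**Figure D1:**
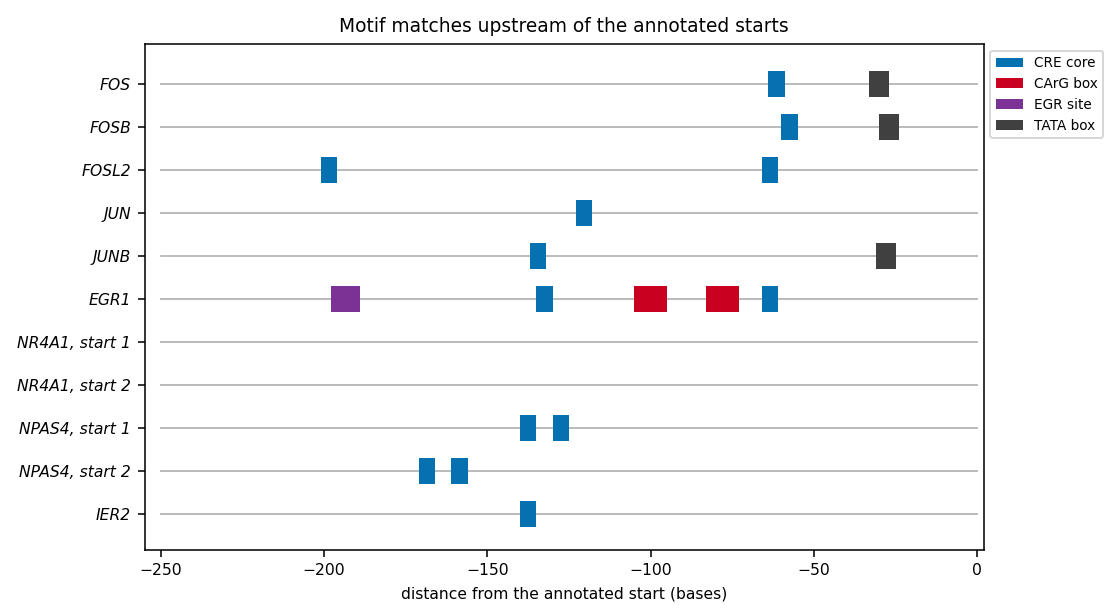
Motif matches in the 250 bases before each annotated start; the x axis is the distance from the start in bases, each row is 1 start, and coloured blocks are matches on either strand. CRE cores stand at 66 to 56 bases in FOS, FOSB, FOSL2 and EGR1, and the TATA box at 33 to 25 bases in FOS, FOSB and JUNB.

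The libraries held 23789195 to 30327891 reads. Neuronal markers were abundant in all 18 libraries, and all 8 ventral forebrain and interneuron markers were detected. Microglia and blood cell markers summed to at most 5.37 CPM (read counts relative to library size, scaled by TMM) and C1QB was at 0 in all libraries. Some cell type markers moved with the drugs. The 7 neuronal markers summed to 5878 to 6604 CPM with cocaine, 6627 to 7244 CPM with dopamine and 7282 to 7810 CPM in controls, with no overlap. The 7 choroid plexus markers summed to 76.7 to 337 CPM with cocaine, 96.6 to 123 CPM with dopamine and 27.8 to 61.7 CPM in controls. The 8 ventral markers summed to 231 to 342 CPM with cocaine, 303 to 401 CPM with dopamine and 424 to 482 CPM in controls. The 6 markers of dividing cells summed to 178 to 389.9 CPM with cocaine, 151 to 174 CPM with dopamine and 133 to 155 CPM in controls. The 8 radial glia markers summed to 2473 to 2885 CPM with cocaine, 2270 to 2576 CPM with dopamine and 2157 to 2318 CPM in controls. The 6 pigment cell markers summed to 10.6 to 17.4 CPM with cocaine, 8.21 to 9.37 CPM with dopamine and 5.05 to 7.55 CPM in controls. With the inhibitor the choroid plexus sums overlapped, at 70.3 to 163 CPM in cocaine + inhibitor, 58.1 to 173 CPM in dopamine + inhibitor and 45.2 to 242 CPM in control + inhibitor. The neuronal, ventral, dividing cell, radial glia and pigment cell sums of both drugs with the inhibitor also overlapped those of control + inhibitor. The mitochondrial rRNA gene RNR2 took 0.857% to 0.933% of reads with cocaine, 0.856% to 0.894% with dopamine and 0.760% to 0.785% in controls. The nuclear RNA MALAT1 took 0.219% to 0.253% with cocaine, 0.220% to 0.270% with dopamine and 0.199% to 0.211% in controls. The part of cell type makeup in the results below was not tested, and in bulk RNA more cells of a type and more RNA per cell cannot be told apart.

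Levels can be compared between genes on the deposited TPM scale, which divides by gene length. JUN was by far the most abundant of the 10 genes, at 168 ± 2.18 TPM in controls (SD, n = 3), followed by IER2 at 48.0 ± 1.26, ARC at 15.7 ± 0.473 and JUNB at 13.1 ± 1.79 TPM. NR4A1 and FOS were level with each other, at 6.28 ± 0.271 and 6.18 ± 0.211 TPM, and FOSL2 stood at 5.23 ± 0.0265 TPM. NPAS4 and EGR1 differed by less than their SDs, at 2.86 ± 0.279 and 2.79 ± 0.497 TPM. FOSB was the lowest, at 0.757 ± 0.419 TPM. Over all 18 libraries the mean of JUN was above that of 95.1% of the genes tested and the mean of FOSB above that of 17.6%.

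FOSB and EGR1 varied most of the 10 between libraries of a group. The biological coefficient of variation from the fit was 23.1% for FOSB and 23.1% for EGR1, 14.7% for FOSL2, 5.51% for JUN and 6.00% for IER2, against a median of 9.51% over all genes tested. The highest of the 18 libraries exceeded the lowest by 4.96-fold in CPM for FOSB, 3.12-fold for EGR1 and 1.29-fold for JUN. FOSB rested on 14 to 72 reads per library and JUN on 3921 to 5186.

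**Figure D2:**
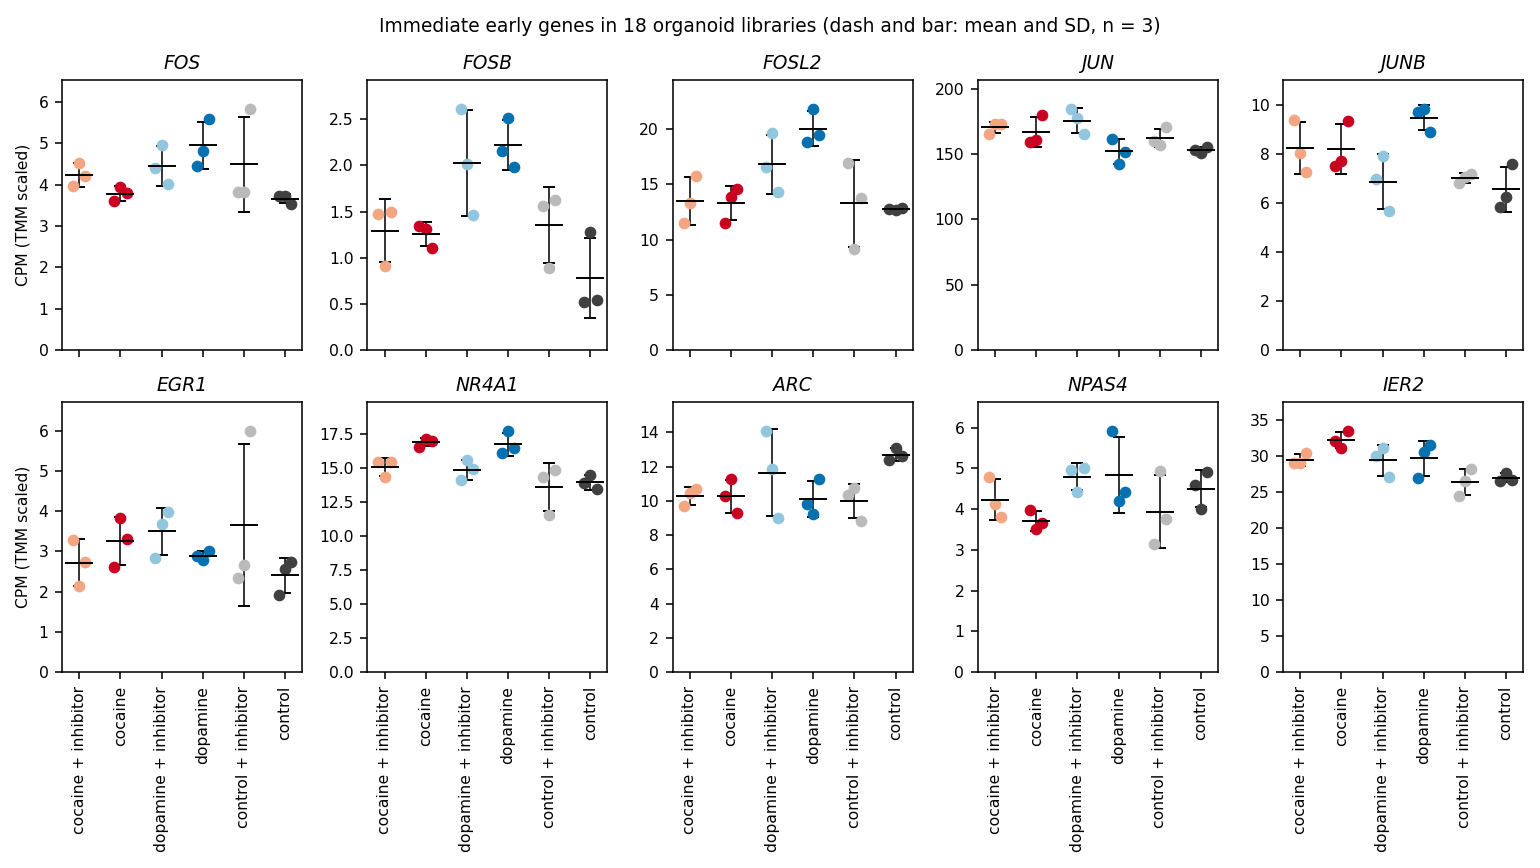
CPM (y axis, from 0) of the 10 genes in each of the 18 libraries by group (x axis); points are libraries, the long dash is the mean and the bars are the SD (n = 3). FOSB, FOSL2 and JUNB have their highest group mean with dopamine, IER2 and NR4A1 with cocaine, and EGR1 has 1 high library in the group control + inhibitor.

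Dopamine against control asked whether a week of daily dopamine left these genes at another level 1 h into the last dose. FOSB rose, and the other FOS genes and JUNB had higher values that did not pass the test. FOSB (gene at chromosome 19, 45467996 to 45475179) was at 2.16, 2.51 and 1.98 CPM in dopamine libraries, against 0.526, 1.28 and 0.541 CPM in controls. The groups did not overlap, and control 2, at 38 reads, stood well above the other controls, at 14 and 15 reads. The fold change was 2.80 (log2 1.49, SE 0.33, adjusted p = 0.0392, edgeR). It was the 1 of 10 genes called, against 0.703% of all genes tested. The call was lost without dopamine 1 (adjusted p = 0.0831), dopamine 2 (0.216), dopamine 3 (0.0665), control 1 (0.202) or control 3 (0.142), with log2 fold changes of 1.27 to 1.55. Without control 2 it was kept, at 2.05.

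FOSL2 (chromosome 2, 28392858 to 28417317), which encodes the FOS-related antigen FRA2, was at 18.9, 21.8 and 19.5 CPM in dopamine libraries, against 12.8, 12.7 and 12.8 CPM in controls. Each dopamine library was above each control, and the controls had an SD of 0.0955 CPM around a mean of 12.8. The log2 fold change of 0.65 (SE 0.17) had an adjusted p of 0.102, and DESeq2 called it, at 0.0125. FOS itself (chromosome 14, 75278828 to 75282230), the classic marker of recent neuronal activity, was at 4.47, 4.82 and 5.59 CPM with dopamine, against 3.72, 3.74 and 3.54 CPM in controls. Again the groups did not overlap, but the log2 fold change of 0.44 (95% confidence interval 0.11 to 0.77) had an adjusted p of 0.203.

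Of the JUN genes, JUNB had higher values with dopamine and JUN did not. JUNB (chromosome 19, 12791486 to 12793315), an AP-1 partner with weaker activity than JUN on many targets, was at 9.69, 9.81 and 8.89 CPM with dopamine, against 5.83, 6.23 and 7.58 CPM in controls. The groups did not overlap, with a log2 fold change of 0.53 (SE 0.14) and an adjusted p of 0.0829 by edgeR and 0.0162 by DESeq2. JUN (chromosome 1, 58780791 to 58784047) was at 162, 143 and 152 CPM with dopamine, against 153, 151 and 156 CPM in controls. These ranges overlapped fully, and the interval of the log2 difference was -0.13 to 0.11, so a change of JUN by more than about 0.13 lay outside it. JUNB overlaps HOOK2 by 865 bases and the strand setting of the counting is not given. HOOK2 was at 26.2 to 29.7 CPM with dopamine and 29.2 to 32.2 CPM in controls, with a log2 fold change of -0.18.

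The mix of the 5 AP-1 genes described here, FOS, FOSB, FOSL2, JUN and JUNB, can be read on the TPM scale. Other genes whose products join AP-1 were left out of the sums, so the shares below are not shares of all AP-1 transcripts. Among those left out, JUND averaged 99.2 CPM in controls and 101 CPM with dopamine, and ATF3 averaged 13.55 and 24.4 CPM. The 3 FOS genes summed to 16.98, 19.5 and 19.2 TPM in dopamine libraries, against 12.05, 12.8 and 11.7 TPM in controls. JUN made up 81.5% ± 1.45 of the summed TPM of the 5 AP-1 genes with dopamine and 86.9% ± 0.656 in controls (SD, n = 3 each), and JUNB made up 9.30% ± 0.682 with dopamine and 6.78% ± 0.824 in controls. In the other 4 groups the mean share of JUN was between 86.0% and 86.5%. The shares are given as a description, with no test.

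Of the genes outside AP-1, NR4A1 (chromosome 12, 52022832 to 52059503), a nuclear receptor that acts without a known natural ligand, was at 16.1, 17.7 and 16.5 CPM with dopamine, against 13.9, 14.52 and 13.4 CPM in controls. Here too the groups did not overlap, with a log2 fold change of 0.27 (SE 0.087, adjusted p = 0.162, edgeR). NR4A1 overlaps non-coding genes, of which LOC107984510, the 1 in the count table, averaged 0.458 CPM. ARC, whose protein regulates AMPA receptor trafficking at synapses, was the gene with lower values: 9.80, 9.25 and 11.3 CPM with dopamine, against 12.4, 13.1 and 12.6 CPM in controls. No dopamine library reached the lowest control, with a log2 fold change of -0.33 (SE 0.13, adjusted p = 0.249). EGR1, at 2.88, 2.79 and 3.01 CPM with dopamine against 1.92, 2.56 and 2.74 CPM in controls, did not overlap either, but had an interval of -0.34 to 0.87. NPAS4 and IER2 overlapped between the groups, with log2 fold changes of 0.10 and 0.14.

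In all, 6 of the 10 genes were higher in each dopamine library than in each control, against 12.2% of the genes tested, and 1 was lower in each, against 11.8%. At an unadjusted p under 0.05 there were 5 higher and 1 lower, where 14.05% of all genes reached that level in either direction. DESeq2 called 2 of the 10 (FOSL2 and JUNB), and of all genes it called 489, where edgeR called 133. It gave FOSB an unadjusted p of 2.86e-05 with no adjusted p, since its independent filter on mean counts set the gene aside. EGR1 had no adjusted p from DESeq2 either. The median log2 fold change of the 10 genes was 0.26, against -0.0028 for all genes tested. In the authors' deposited table for dopamine, FOSB was the 1 of the 10 genes among 64 listed, with a log2 fold change of 1.48 and an FDR p of 0.000593, and none of the 10 was in the authors' other 4 tables, which list genes at least 1.00 in absolute log2 fold change. The table does not name its comparator. It matched ratios to control, with a median difference of 0.0175 on the log2 scale.

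Cocaine against control asked the same of cocaine. IER2 rose, by a small amount. IER2 (chromosome 19, 13150411 to 13154911), which encodes a nuclear protein that regulates transcription, was at 32.1, 31.2 and 33.5 CPM with cocaine, against 26.6, 27.8 and 26.7 CPM in controls. The groups did not overlap, and the fold change was 1.19 (log2 0.26, SE 0.069, adjusted p = 0.0448, edgeR). It was the 1 of 10 genes called, against 4.33% of all genes tested. The call was lost without any 1 of the 6 libraries: adjusted p was 0.0607, 0.0804 and 0.230 without cocaine 1, 2 or 3, and 0.172, 0.103 and 0.108 without control 1, 2 or 3, with log2 fold changes of 0.23 to 0.28. It was also lost with no filter on low counts (adjusted p = 0.0610).

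With cocaine the 3 FOS genes overlapped the controls. FOSB was at 1.35, 1.32 and 1.11 CPM with cocaine, against 0.526, 1.28 and 0.541 CPM in controls, and the groups overlapped through control 2. Its log2 fold change was 0.67, with an interval of -0.05 to 1.39 (adjusted p = 0.253). Without control 2 the groups did not overlap, and the log2 fold change was 1.23 (adjusted p = 0.0974). FOSL2, at 11.54, 13.9 and 14.6 CPM with cocaine, lay on both sides of the controls, with an interval of -0.31 to 0.43. FOS, at 3.60, 3.95 and 3.81 CPM with cocaine, overlapped the controls, with an interval of -0.29 to 0.38. JUNB, at 7.49, 7.70 and 9.35 CPM with cocaine, touched the highest control at 7.58 CPM and had a log2 fold change of 0.32 (adjusted p = 0.171). JUN, at 159.5, 161 and 179.9 CPM with cocaine, was above each control but by a log2 fold change of 0.12 (adjusted p = 0.218).

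NR4A1 was at 16.6, 17.1 and 17.01 CPM with cocaine, above each control at 13.4 to 14.52 CPM, with a log2 fold change of 0.28 (SE 0.087). Its adjusted p was 0.0723 by edgeR and 0.0456 by DESeq2, which called NR4A1 and IER2. Of all genes, DESeq2 called 1648 with cocaine, where edgeR called 818. ARC was at 10.3, 11.2 and 9.30 CPM with cocaine, against 12.4, 13.1 and 12.6 CPM in controls, again below each of them (log2 -0.31, adjusted p = 0.170). NPAS4 (chromosome 11, 66409158 to 66426707), a factor induced in neurons by calcium entry, was at 3.97, 3.51 and 3.65 CPM with cocaine, against 4.59, 4.01 and 4.91 CPM in controls. Its 3 cocaine libraries were below the controls, with an interval of the log2 difference from -0.64 to 0.08. EGR1 (chromosome 5, 138465479 to 138469303), an activity-induced factor of synaptic plasticity, overlapped, at 2.62, 3.83 and 3.32 CPM with cocaine.

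Thus 3 of the 10 genes were higher in each cocaine library, against 16% of the genes tested, and 2 were lower in each, against 16.3%. These shares are near the background. At an unadjusted p under 0.05 there were 4 of 10, where 23.12% of all genes reached that level. The median log2 fold change of the 10 genes was 0.19, against 0.0055 for all genes tested. Both drugs were set against the same control libraries, so the lower values of ARC and the higher values of NR4A1 under both are not independent of each other.

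**Figure D3:**
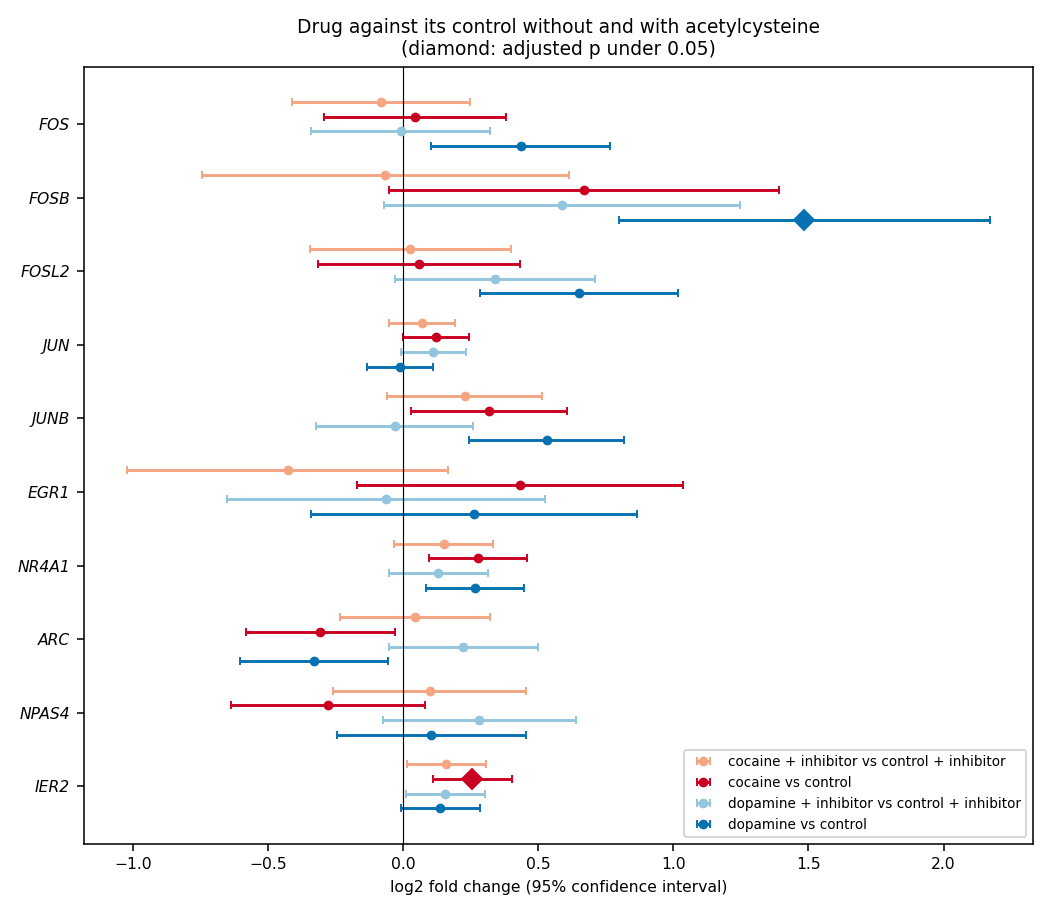
log2 fold change (x axis) of each of the 10 genes for 4 comparisons of a drug with its control, with and without acetylcysteine; bars are 95% confidence intervals of the edgeR fit and diamonds mark an adjusted p under 0.05. FOSB with dopamine, at 1.49, and IER2 with cocaine, at 0.26, are the diamonds.

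With the inhibitor in both groups, no gene of the 10 was called for either drug. For dopamine + inhibitor against control + inhibitor, 0 of 10 were called by edgeR and 0 by DESeq2, against 0.00529% of all genes tested by edgeR, and 1 of 10 (IER2) had an unadjusted p under 0.05, as had 5.58% of all genes. No gene of the 10 separated the groups in either direction, against 5.81% of genes tested higher and 4.41% lower. FOSB was at 2.61, 2.01 and 1.46 CPM in dopamine + inhibitor, against 1.56, 0.886 and 1.62 CPM in control + inhibitor. The groups overlapped, with a log2 fold change of 0.59 and an interval of -0.07 to 1.25, which holds both no change and part of the range seen without the inhibitor. FOSL2 was at 16.6, 19.6 and 14.3 CPM in dopamine + inhibitor, against 16.9, 9.15 and 13.8 CPM in control + inhibitor, where the controls spread widely. JUNB, at 6.97, 7.90 and 5.68 CPM in dopamine + inhibitor, lay on both sides of control + inhibitor at 6.79, 7.05 and 7.18 CPM, with an interval of -0.32 to 0.26.

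For cocaine + inhibitor against control + inhibitor, 0 of 10 were called by edgeR and 0 by DESeq2, against 0.0211% of genes tested by edgeR, and 1 of 10 had an unadjusted p under 0.05, as had 16.65% of all genes. That gene was IER2, at 29.0, 29.1 and 30.5 CPM in cocaine + inhibitor and 24.6, 26.6 and 28.2 CPM in control + inhibitor, with no overlap (log2 0.16, SE 0.070, adjusted p = 0.261). IER2 and JUNB made 2 of 10 genes higher in each cocaine + inhibitor library, against 7.89% of genes tested, and 0 were lower in each, against 8.75%. FOSB was at 1.48, 0.907 and 1.5 CPM in cocaine + inhibitor, close to the values in control + inhibitor.

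Whether the drug effect differed with the inhibitor was tested by the interaction. For dopamine 0 of 10 genes were called by edgeR and 0 by DESeq2, against 0.00529% of genes tested by edgeR, and 2 of 10, JUNB and ARC, had an unadjusted p under 0.05, as had 8.35% of all genes. The dopamine difference of JUNB was 0.56 lower on the log2 scale with the inhibitor (log2 -0.56, SE 0.19, interval -0.97 to -0.16, adjusted p = 0.484). That of ARC was higher by 0.55 (SE 0.19, interval 0.16 to 0.94, adjusted p = 0.484). For FOSB the interaction was -0.90 with an interval of -1.85 to 0.06, so the loss of its call with the inhibitor is not a tested loss of the effect. For cocaine 0 of 10 were called by edgeR and 0 by DESeq2, against 0% of genes tested by edgeR. At an unadjusted p under 0.05 was 1 of 10, as were 5.26% of all genes. That gene was EGR1 (log2 -0.86, adjusted p = 0.918). That value rests on control + inhibitor 3: without it the interaction of EGR1 was -0.32, at an unadjusted p of 0.308.

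The inhibitor alone, control + inhibitor against control, had 0 of 10 genes called by edgeR and 0 by DESeq2, against 0% of genes tested by edgeR. FOSB and ARC, 2 of the 10, had an unadjusted p under 0.05, as had 5.72% of all genes. FOSB was at 1.56, 0.886 and 1.62 CPM in control + inhibitor, against 0.526, 1.28 and 0.541 CPM in controls, which overlapped (log2 0.77, SE 0.34, adjusted p = 0.866). ARC was at 10.4, 10.7 and 8.84 CPM in control + inhibitor, below each control at 12.4 to 13.1 CPM (log2 -0.35, SE 0.13, adjusted p = 0.863). The control group therefore had the highest ARC mean of the 6 groups, at 12.7 ± 0.358 CPM, and the lowest FOSB mean, at 0.783 ± 0.431 CPM (SD, n = 3), and each comparison with control carries these same libraries.

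A single library set the EGR1 and FOS values of the inhibitor controls. EGR1 was at 2.33, 2.66 and 5.98 CPM in control + inhibitor, against 1.92, 2.56 and 2.74 CPM in controls, and FOS at 3.82, 3.83 and 5.83 CPM, against 3.72, 3.74 and 3.54 CPM. Control + inhibitor 3 had the highest EGR1 and FOS of all 18 libraries. Without it the log2 fold change of control + inhibitor over control was 0.05 for EGR1 and 0.06 for FOS, against 0.60 and 0.29 with it. In that library the choroid plexus markers summed to 242 CPM and the neuronal markers to 6624 CPM. They summed to 153 and 6800 CPM in control + inhibitor 1, and to 45.2 and 8163 CPM in control + inhibitor 2. Over all genes control + inhibitor 2 was the library apart, at a chi-square per gene of 15.4 and 19.6 from the others, which differed by 5.84. It also had the lowest FOSL2 and NR4A1 of all 18 libraries, at 9.15 and 11.6 CPM. Whether the markers go with EGR1, FOS, FOSL2 or NR4A1 was not tested.

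Within the dopamine groups, dopamine + inhibitor against dopamine had 0 of 10 genes called by edgeR and 0 by DESeq2, against 0.00529% of genes tested by edgeR. DESeq2 gave FOSB no adjusted p here. JUN and JUNB, 2 of the 10, had an unadjusted p under 0.05, as had 8.67% of all genes. JUNB was at 6.97, 7.90 and 5.68 CPM in dopamine + inhibitor, below each dopamine library at 9.69, 9.81 and 8.89 CPM (log2 -0.46, SE 0.14, adjusted p = 0.401). JUN was at 184, 177 and 165.5 CPM in dopamine + inhibitor, above each dopamine library at 162, 143 and 152 CPM (log2 0.21, SE 0.058, adjusted p = 0.383). FOSB and FOSL2 overlapped between these groups, with log2 fold changes of -0.12 and -0.25.

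Within the cocaine groups, cocaine + inhibitor against cocaine had 0 of 10 genes called by edgeR and 0 by DESeq2, against 0% of genes tested. Of the 10, 0 had an unadjusted p under 0.05, where 3.215% of all genes reached that level. Averaged over control, dopamine and cocaine, the inhibitor had 0 of 10 called by edgeR and 0 by DESeq2, against 0% of genes tested by edgeR. JUN (log2 0.11, SE 0.034, adjusted p = 0.982) and NR4A1 (log2 -0.13, SE 0.050, adjusted p = 0.995) were the 2 of 10 with an unadjusted p under 0.05. Of all genes, 4.77% reached that level.

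Cocaine against dopamine compared the drugs directly, without the inhibitor and without the control libraries. Of the 10 genes 0 were called by edgeR, against 0% of genes tested, and 5 had an unadjusted p under 0.05, where 11.76% of all genes reached that level. In 4 of the 10 each cocaine library was below each dopamine library, against 10.3% of genes tested, and in 0 of the 10 each was above, against 10%. DESeq2 called 0, though it gave no adjusted p for 8 of them. FOSL2 was at 11.54, 13.9 and 14.6 CPM with cocaine, against 18.9, 21.8 and 19.5 CPM with dopamine, with no overlap (log2 -0.59, SE 0.17, adjusted p = 0.304). FOSB was at 1.35, 1.32 and 1.11 CPM with cocaine, against 2.16, 2.51 and 1.98 CPM with dopamine, also with no overlap (log2 -0.82, SE 0.31, adjusted p = 0.366). FOS, at 3.60 to 3.95 CPM with cocaine and 4.47 to 5.59 CPM with dopamine, did not overlap either (log2 -0.39, adjusted p = 0.377). NPAS4, at 3.51 to 3.97 CPM with cocaine and 4.19 to 5.91 CPM with dopamine, was also apart (log2 -0.38, adjusted p = 0.401). The 3 FOS genes summed to 11.9, 13.3 and 12.8 TPM with cocaine, against 16.98, 19.5 and 19.2 TPM with dopamine. The values of JUN, JUNB, EGR1, NR4A1, ARC and IER2 overlapped, and for NR4A1 the interval of the log2 difference was -0.17 to 0.19.

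Among themselves the 10 genes did not rise and fall as 1 block across libraries. Over the 18 libraries, Pearson's r of log2 CPM was 0.68 between FOSL2 and FOSB, 0.59 between FOSB and FOS, 0.58 between FOSL2 and FOS and 0.68 between IER2 and NR4A1. It was 0.0018 between JUN and FOSL2 and -0.0020 between JUNB and JUN. After group means were removed, r was 0.39 for FOSL2 with FOSB and 0.19 for FOSB with FOS, while FOSL2 with NR4A1 stood at 0.70 and FOSL2 with NPAS4 at -0.82. These are descriptions over libraries that share groups, depth and cell makeup. Control + inhibitor 2 had the lowest FOSL2 and NR4A1 of all 18 libraries, at 9.15 and 11.6 CPM. Its NPAS4, at 4.93 CPM, was above the 3.15 and 3.745 CPM of the other libraries of its group. How far the values for FOSL2 with NR4A1 and with NPAS4 rest on that library was not tested.

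**Figure D4:**
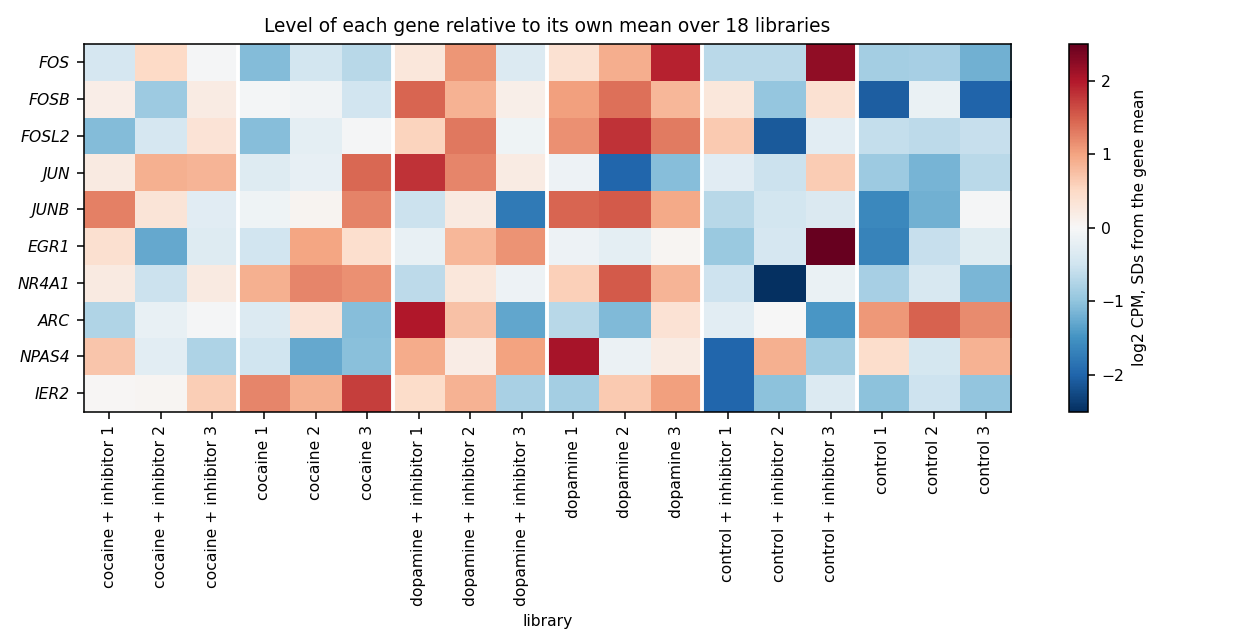
Level of each gene (rows) in each library (columns) as SDs of log2 CPM from its own mean over 18 libraries; red is above and blue below the mean. FOSB, FOSL2 and JUNB are red in the dopamine columns, ARC is red in the control columns, and the darkest red is EGR1 in control + inhibitor 3.

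The mean standardised level of the 10 genes was 0.49, 0.43 and 0.64 SDs in dopamine libraries and -0.80, -0.45 and -0.49 SDs in controls. Dopamine + inhibitor was split, at 0.61, 0.76 and -0.20 SDs, with dopamine + inhibitor 3 apart from the others on this measure. In that library the pigment cell markers reached 93.2 CPM, against 5.89 and 8.44 CPM in the other libraries of its group. Whether these markers go with the mean level was not tested. Over all genes dopamine + inhibitor 1 was the library apart, at a chi-square per gene of 13.05 and 12.1 from the others, which differed by 3.71. By Pearson's r over 18 libraries, 12612 genes were ranked by likeness to the mean profile of the 10. At the top were HIST1H1C (r 0.91, Spearman's rho 0.88), which encodes a linker histone, the golgin gene GOLGA5 (r 0.89), CCDC9 (r 0.88) and DPH2 (r 0.87), for diphthamide synthesis. P4HB, SRP54, XPNPEP3 and ZNF598 followed at r of 0.86 to 0.85. These are the highest of 12612 values, over libraries that share groups, depth and cell makeup. Shared regulation with the 10 genes was not tested.

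The wider pathway was read from 5 lists. The calls below are to be read against 0.703% of all genes called with dopamine and 4.33% with cocaine. Each call named from these lists was lost without at least 2 of the 6 libraries compared. Without cocaine 3, control 1 or control 2, no gene of the whole table was called with cocaine. Of 32 other immediate early genes tested of 34, 1 was called with dopamine, 1 with cocaine and 1 with cocaine + inhibitor against control + inhibitor, all higher. ATF3, a stress-induced AP-1 partner, was at 20.6, 28.0 and 24.4 CPM with dopamine, against 11.7, 13 and 15.9 CPM in controls (log2 0.85, SE 0.16, adjusted p = 0.0233, edgeR). That call was kept without dopamine 1 but lost without any other of the 6 libraries, with adjusted p of 0.0289 to 0.162. GADD45B, an activity-induced gene with a part in DNA demethylation, was at 2.96, 3.15 and 4.02 CPM with cocaine, against 1.69, 1.78 and 2.31 CPM in controls (log2 0.80, adjusted p = 0.0380, and up to 0.229 with 1 library left out). KLF10, a repressor induced by TGF-beta, was at 56.5, 49.8 and 52.0 CPM in cocaine + inhibitor, against 41.0, 38.2 and 38.5 CPM in control + inhibitor (log2 0.43, adjusted p = 0.00488). Without cocaine + inhibitor 1 or control + inhibitor 3 the call was lost, with an adjusted p of at most 0.0569. The KLF10 mean of control + inhibitor, 39.2 CPM, was the lowest of the 6 groups, below control at 46.5 CPM (log2 -0.25, adjusted p = 0.823, edgeR). Its means with cocaine and cocaine + inhibitor were alike, at 52.5 and 52.7 CPM. The median log2 fold change of this list was 0.063 with dopamine and 0.16 with cocaine, and 5 and 14 of the 32 had an unadjusted p under 0.05, where 14.05% and 23.12% of all genes reached that level with dopamine and with cocaine. EGR3, at a log2 fold change of -1.01 with cocaine (adjusted p = 0.0576), and NR4A3, at 0.96 with dopamine (adjusted p = 0.141), were among those not called.

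Of 15 AP-1 dimer partners tested of 18, ATF3 was the 1 called with dopamine and 0 were called with cocaine, by edgeR. At an unadjusted p under 0.05 there were 3 of 15 with each drug, beside the shares of all genes above. JUND, the JUN family member that is expressed constantly, had log2 fold changes of 0.029 with dopamine and 0.22 with cocaine, neither called. ATF4 was at 0.19 with dopamine (adjusted p = 0.104, edgeR) and 0.11 with cocaine (adjusted p = 0.225, edgeR), also not called. Of 37 upstream kinases and factors, 0 were called with dopamine, where 6 of 37 had an unadjusted p under 0.05. With cocaine MKL2, an SRF coactivator, was the 1 called, at 86.0, 79.6 and 78.0 CPM against 91.4, 95.7 and 97.1 CPM in controls (log2 -0.22, adjusted p = 0.0454, and up to 0.247 with 1 library left out).

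Of 17 feedback inhibitors of ERK and JNK, 2 fell with cocaine, against 4.33% of all genes called, and 0 were called with dopamine, against 0.703%. At an unadjusted p under 0.05 there were 6 of 17 with cocaine and 0 with dopamine. DUSP4, a nuclear MAP kinase phosphatase, was at 74.3, 66.8 and 63.1 CPM with cocaine, against 95.1, 79.3 and 85.6 CPM in controls (log2 -0.35, adjusted p = 0.0394). SPRED3, of a family of RAS pathway inhibitors, was at 26.9, 26.0 and 23.1 CPM with cocaine, against 33.8, 33.9 and 30.1 CPM in controls (log2 -0.37, adjusted p = 0.0313). Both calls were lost without cocaine 2, cocaine 3, control 1 or control 2, and that of DUSP4 also without control 3, with adjusted p up to 0.233 for DUSP4 and 0.205 for SPRED3. The median log2 fold change of the list was -0.040 with cocaine and -0.021 with dopamine.

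Of 26 delayed activity-regulated genes tested of 27, 2 rose with dopamine, against 0.703% of all genes called, and 2 with cocaine, against 4.33%. At an unadjusted p under 0.05 there were 7 of 26 with each drug. BHLHE40, a repressor tied to the circadian clock, was at 34.7, 42.4 and 38.7 CPM with dopamine, against 20.4, 28.7 and 26.2 CPM in controls (log2 0.62, adjusted p = 0.0185). The clock gene PER1, a known CREB target, was at 55.6, 63.2 and 60.1 CPM with dopamine, against 40.4, 51.8 and 42.5 CPM in controls (log2 0.41, adjusted p = 0.0221). Both calls were lost without dopamine 2, control 1 or control 3, and that of PER1 also without dopamine 3, with adjusted p up to 0.140 for BHLHE40 and 0.162 for PER1. With cocaine GEM, a small GTPase that inhibits calcium channels, was at 10.1, 5.34 and 9.76 CPM, against 3.31, 2.53 and 3.79 CPM in controls (log2 1.39, adjusted p = 0.0251). RGS16, which shortens G protein signals, was at 19.7, 22.5 and 20.6 CPM with cocaine, against 15.7, 16.9 and 16.8 CPM in controls (log2 0.35, adjusted p = 0.0368). Both were lost without cocaine 2, cocaine 3, control 1 or control 2, and that of RGS16 also without control 3, with adjusted p up to 0.174 for GEM and 0.185 for RGS16. In BHLHE40 the dopamine + inhibitor values, 28.1, 30.4 and 23.7 CPM, were below each dopamine library (log2 -0.50, adjusted p = 0.280). The list medians were 0.041 with dopamine and 0.10 with cocaine. With the inhibitor in both groups 0 of the list were called by edgeR for either drug, with 2 for dopamine and 8 for cocaine at an unadjusted p under 0.05, where 5.58% and 16.65% of all genes reached that level. For dopamine + inhibitor against control + inhibitor the log2 fold change was 0.41 for PER1 (adjusted p = 0.193), the size seen without the inhibitor, and -0.10 for BHLHE40 (adjusted p = 0.978). For cocaine + inhibitor against control + inhibitor it was 0.32 for RGS16 (adjusted p = 0.147) and 0.42 for GEM (adjusted p = 0.482).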

How the data were processed

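The members and gene lists were chosen with earlier results of these data known. The authors deposited raw read counts per gene and TPM values for 18 libraries, without pooling replicates. They also deposited 5 tables of comparisons with log2 fold changes, fold-change scores, p-values and FDR p-values, per the file headers. Per the submitters' processing notes the reads were placed on GRCh38/hg38. Aligner, counter, strand setting and annotation: not given in the sources used here. Total counts were 23789195 to 30327891 per library.

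Counts were scaled by TMM (factors 0.975 to 1.016) and tested with edgeR 4.0.16 in R 4.3.3: filterByExpr with a minimum count of 10, 1 mean per group over all 18 libraries, robust quasi-likelihood F-tests, two-sided, 11 contrasts, with Benjamini-Hochberg adjustment over 18913 genes. Called means an adjusted p under 0.05. Levels are CPM with TMM scaling. Confidence intervals come from the fit and, like its p-values, rest on 3 libraries a group. Replicates differed beyond sampling noise in every pair (chi-square per gene 3.71 to 23.5), so none was merged. Their numbers follow deposit order and pair nothing.

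The text describes all 10 members and each list gene called in any contrast. Of the uncalled list genes of lowest p it describes some, and CAMK2B, CRTC2, MKL1, DUSP8 and IER3 were left out. It also names the 8 genes of mean CPM at least 5 most correlated with the members' mean profile. Gene positions and promoters are from RefSeq on GRCh38.p14. Alternatives were DESeq2 1.42.0, RLE scaling, no filter on low counts, only the groups compared, each library left out, and ratios of mean deposited TPM. The code was tested on simulated data.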

Additional observations from a re-analysis of the deposited data

How the results depend on the processing

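Of 1319 log2 fold changes of the 10 genes tested again under an alternative, over 110 results, 1302 kept their direction where called and their side of the threshold, 12 lost a call and 5 gained one. Another 80 ratios of mean deposited TPM, which have no test, all lay within 1 within-group SD of the fitted value. No called value changed sign, and 62 values called in neither setting did. FOSB with dopamine and IER2 with cocaine were the results called in the main fit, so nearly all of the 1302 were called in neither setting. The FOSB call was lost in 5 of 9 alternatives and the IER2 call in 7 of 10. The gains were FOSL2, JUNB and NR4A1 under DESeq2, and FOSL2 and JUNB when only the groups compared were fitted. The cause was not tested.

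The number of the 10 genes called with dopamine, 1, became 2 under DESeq2 and 3 with only the groups compared, and ran from 0 to 1 when single libraries were left out. With cocaine, 1 became 2 under DESeq2, 0 without a filter on low counts, and 0 to 0 when single libraries were left out. IER2 had adjusted p of 0.0213 to 0.230 over its alternatives, FOSB 0.0162 to 0.216, FOSL2 0.00203 to 0.389 and JUNB 0.0162 to 0.325.

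Counts over all genes moved more. DESeq2 called 489 genes with dopamine (edgeR 133), 1648 with cocaine (818), 4 with the inhibitor alone (0), 6 for dopamine + inhibitor (1) and 313 for cocaine + inhibitor (4) against control + inhibitor, 34 for dopamine + inhibitor against dopamine (1), 72 for cocaine against dopamine (0), 7 for the averaged inhibitor (0), and 17 and 1 for the dopamine and cocaine interactions (1 and 0). Fitting only the groups compared gave 540 with dopamine, 1583 with cocaine, 0 for cocaine + inhibitor and 3 for dopamine + inhibitor against dopamine. No filter on low counts gave 9 for cocaine + inhibitor and 3 for dopamine + inhibitor against dopamine. Leaving out 1 library gave 7 to 100 with dopamine (lowest without dopamine 2) and 0 to 1121 with cocaine (0 without cocaine 3, control 1 or control 2, and 1 without cocaine 2). It gave 2 to 1276 for cocaine + inhibitor (highest without cocaine + inhibitor 2), 0 to 0 for dopamine + inhibitor and 0 to 1 for dopamine + inhibitor against dopamine. FOSB rested on 14 to 72 reads per library. The averaged inhibitor contrast uses all 6 groups, so it was not run on fewer. No paired analysis was possible because the labels give no replicate number shared between groups.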
